A study of Mus musculus with 59 samples.

Results

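Brown adipose tissue (BAT) of BATKO mice was compared with that of control (CTRL) mice kept at 30 °C. The comparison used every library of these 2 groups, 5 BATKO mice (numbers 13, 14, 15, 16 and 17) and 4 CTRL mice (numbers 19, 20, 21 and 22), which is 9 of the 59 mice of the series. All 9 were male C57BL/6J mice aged 8 to 12 weeks, and each mouse gave 1 library of total RNA. Neither the labels nor the paper's text says which gene the BATKO mice lack or what drives its deletion, and the labels do not give how long the mice stayed at 30 °C. The series is described as a study of the target genes of thyroid hormone (TH) in BAT under metabolic stress. The same experiment held 4 BATKO and 3 CTRL mice at 4 °C, which entered the same fit and so its filter and its estimate of the spread, and are otherwise used here to say where the groups at 30 °C differ from them. Separate experiments of the series gave BATKO and CTRL mice on chow or a high-fat diet. They also gave wild-type mice treated with propylthiouracil (PTU), alone or followed by TH for 3, 6, 12 or 24 h.

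Brown adipocytes burn fatty acids in their many mitochondria and release the energy as heat, through the uncoupling protein encoded by Ucp1. Cold activates them through noradrenaline and beta-adrenergic receptors, and at 30 °C, close to thermoneutrality for a mouse, this drive is low. The active hormone T3 acts on the same cells through the nuclear receptors encoded by Thra and Thrb, and brown adipocytes make T3 themselves with the deiodinase encoded by Dio2.

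Both receptor genes were measured in every mouse first, since the genotype is given only as a name. Normalised counts of Thra were 235, 240, 187, 294 and 294 in BATKO mice 13 to 17 and 213, 239, 146 and 168 in CTRL mice 19 to 22. The groups overlapped, with a log2 fold change of 0.38 ± 0.19 (SE) and an adjusted p of 0.542 by edgeR's quasi-likelihood test. Those of Thrb were 290, 214, 261, 242 and 174 in BATKO mice and 355, 274, 310 and 349 in CTRL mice. They were lower in 4 of the 5 BATKO mice than in every CTRL mouse, with a log2 fold change of -0.45 ± 0.15 and an adjusted p of 0.542. Counts per gene do not show the loss of a single exon, so these levels leave the genetic change undescribed.

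Total counts were between 8004926 and 11876234 per mouse, and mitochondrially encoded genes took 39.3% to 54.7% of them. Summed skeletal muscle markers differed widely between mice of both groups, from 207 to 123047 normalised counts in BATKO and from 138 to 72526 in CTRL mice. The ranges of the genotypes overlapped (exact permutation test of the log2 sums, two-sided, p = 0.905). Xist, the RNA that silences an X chromosome in females, stood at 86.1 normalised counts in BATKO mouse 13 and between 0 and 10.8 in the other 8 mice, whereas the Y-linked gene Ddx3y was between 179 and 527 in all 9. The label of BAT was met in all libraries: Ucp1 was between 1592 and 14141 and Cidea, a lipid droplet protein of brown adipocytes, between 2552 and 7468 normalised counts.

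A single gene, Elmod2, passed the threshold of an adjusted p of 0.05 between the genotypes at 30 °C, and it was higher in BATKO mice. That is 0.00754% of the 13257 genes tested, which were those with a mean normalised count above 10 over the 16 mice at both temperatures. Elmod2 encodes a GTPase-activating protein for small GTPases of the ARF family. It stood at 735, 799, 903, 797 and 748 normalised counts in BATKO mice 13 to 17, and at 215, 217, 270 and 326 in CTRL mice 19 to 22. The lowest BATKO value was more than the highest CTRL value, with no overlap. Means were 796 ± 66.2 (SD, n = 5) and 257 ± 52.6 (SD, n = 4), a log2 fold change of 1.63 ± 0.17 (SE) or 3.10-fold, with a 95% confidence interval of 2.40 to 4.00. The adjusted p was 0.000662, and an exact permutation test of the log2 values of the mice gave p = 0.0159, the smallest that 4 against 5 mice allow. The call held without any single mouse, in 9 fits with log2 fold changes of 1.55 to 1.74, and without BATKO mouse 13, whose Xist was high, the adjusted p was 0.00182. With only the 9 mice at 30 °C in the fit, the log2 fold change was 1.61 and the adjusted p 0.00270. Without the 4 mice at 30 °C with muscle markers above 10000 normalised counts, which leaves 3 against 2 mice at 30 °C, the log2 fold change was 1.60 and the adjusted p 0.377.

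**Figure D1:**
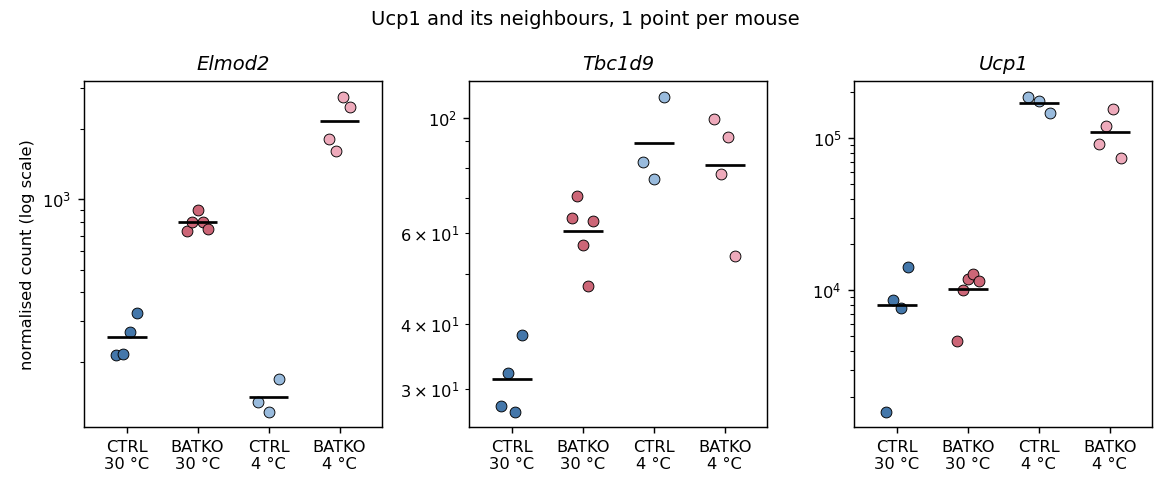
Normalised counts (log scale) of Elmod2, Tbc1d9 and Ucp1 in each mouse, for CTRL and BATKO mice at 30 °C and 4 °C. Points are mice and bars are group means. BATKO mice at 30 °C sit between 735 and 903 for Elmod2 and CTRL mice between 215 and 326, while the Ucp1 values of the 2 groups overlap.

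Elmod2 lies on the minus strand at chr8:83312632-83332486 (GRCm38), and Ucp1 next to it on the plus strand at chr8:83290352-83298452, with a gap of 14180 bases between the gene bodies. On the other side of Ucp1, at a gap of 17418 bases, is Tbc1d9 (chr8:83165352-83272934, plus strand), whose protein belongs to the family of Rab GTPase activators. Tbc1d9 was chosen for naming after its values were seen. Its normalised counts were 64.0, 70.6, 56.7, 47.4 and 63.3 in BATKO mice and 27.8, 32.2, 27.1 and 38.0 in CTRL mice. These groups did not overlap either, which was the case for 416 of the genes tested (3.14%), and the log2 fold change was 0.95 ± 0.20 with an adjusted p of 0.376. By unadjusted p, Tbc1d9 was the gene of rank 7 among those tested.

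Ucp1 itself did not share this pattern at 30 °C. Its normalised counts were 4646, 10002, 11919, 12737 and 11519 in BATKO mice and 1592, 8631, 7625 and 14141 in CTRL mice, so the CTRL range enclosed the BATKO range. The log2 fold change was 0.35 ± 0.42, with a 95% confidence interval of -0.55 to 1.24 and an adjusted p of 0.779. When single mice were left out it was between 0.0046, without CTRL mouse 19, and 0.76, without CTRL mouse 22. Within 1 Mb of Ucp1, 29 genes were tested, of which Elmod2 was called, 8 were higher and 0 lower at an unadjusted p under 0.05, and the median log2 fold change was 0.31. That unadjusted p was reached by 6.75% of all genes tested for higher and 2.33% for lower values in BATKO mice. Within 5 Mb, 90 genes were tested, with a median of 0.08, and the list beyond Elmod2 held 0 further calls. Within 1 Mb of Thra, 32 genes were tested and 0 were called, and within 1 Mb of Thrb, 9 were tested and 0 were called.

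**Figure D2:**
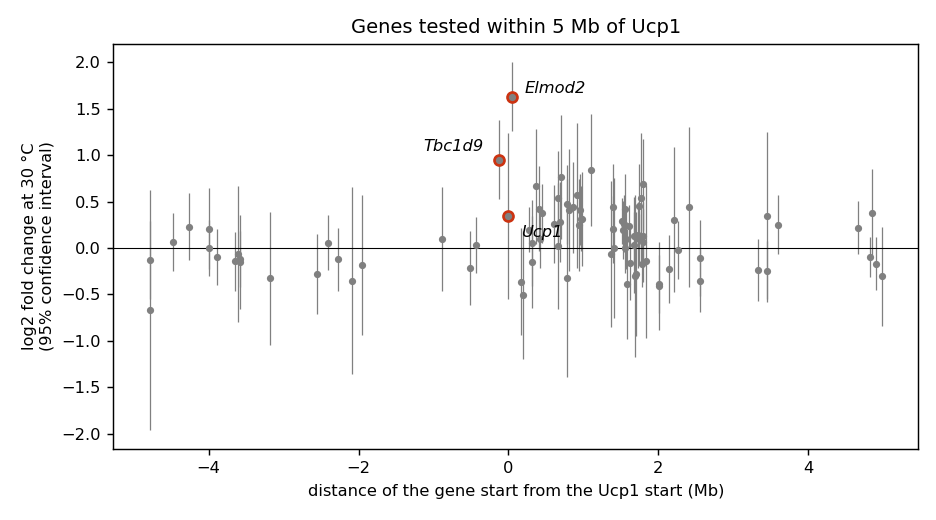
Log2 fold change between BATKO and CTRL mice at 30 °C of the 90 genes tested within 5 Mb of Ucp1, against the distance of each gene's start from the Ucp1 start in Mb. Bars are 95% confidence intervals. Elmod2 at 1.63 and Tbc1d9 at 0.95 flank Ucp1 at 0.35.

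The start regions of these 3 genes are shown because Elmod2 was the single call and the other two lie beside it. They are the RefSeq sequences of GRCm38.p6 from 250 bases before to 50 bases after the gene start, printed 5′ to 3′ on the strand of the gene. Capitals mark the letters AGGTCA on either strand, the half-site at which thyroid hormone receptors and other nuclear receptors bind.
Elmod2 (chr8:83332437-83332736, minus strand): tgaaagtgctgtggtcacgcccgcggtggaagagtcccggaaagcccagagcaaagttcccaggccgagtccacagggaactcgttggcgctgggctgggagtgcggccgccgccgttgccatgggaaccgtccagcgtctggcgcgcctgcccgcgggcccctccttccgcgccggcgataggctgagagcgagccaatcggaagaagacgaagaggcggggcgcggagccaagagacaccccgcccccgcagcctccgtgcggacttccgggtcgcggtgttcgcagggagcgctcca
Tbc1d9 (chr8:83165102-83165401, plus strand): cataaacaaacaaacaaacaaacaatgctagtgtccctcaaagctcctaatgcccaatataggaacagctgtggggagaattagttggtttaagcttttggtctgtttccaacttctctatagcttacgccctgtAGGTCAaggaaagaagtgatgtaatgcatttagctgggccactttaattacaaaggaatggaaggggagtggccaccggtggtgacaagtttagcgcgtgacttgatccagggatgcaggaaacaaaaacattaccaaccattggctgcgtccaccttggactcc
Ucp1 (chr8:83290098-83290397, plus strand): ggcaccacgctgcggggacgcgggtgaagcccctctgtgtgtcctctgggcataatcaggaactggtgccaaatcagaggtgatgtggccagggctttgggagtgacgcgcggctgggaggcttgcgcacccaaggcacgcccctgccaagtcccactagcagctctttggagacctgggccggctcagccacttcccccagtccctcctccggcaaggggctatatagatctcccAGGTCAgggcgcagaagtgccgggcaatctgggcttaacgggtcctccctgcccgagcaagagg
The Elmod2 window held 0 matches, the Tbc1d9 window 1 and the Ucp1 window 1. Of the 32851 windows of this length in the table, 16.3% held at least 1 match. The direct repeat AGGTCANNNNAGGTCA, searched on both strands, was in none of the 3 windows and in 5 windows of the whole table.

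In the mice of the other conditions, the Elmod2 values of BATKO and CTRL did not overlap at 4 °C or on chow, and overlapped on a high-fat diet. At 4 °C normalised counts were 1816, 1619, 2757 and 2491 in BATKO mice and 135, 123 and 169 in CTRL mice, a log2 fold change of 3.93 ± 0.22 (adjusted p = 5.09e-08). The genotype difference at 30 °C was smaller than at 4 °C, with an interaction term of -2.30 ± 0.26 (adjusted p = 0.000797). Values of Elmod2 were 2.73 times higher at 4 °C than at 30 °C in BATKO mice, and 0.553 times those at 30 °C in CTRL mice, as ratios of means. On chow, in a separately normalised table, 2 BATKO mice stood at 1666 and 1586 and 4 CTRL mice between 236 and 374, with a log2 fold change of 2.57 ± 0.68 and an adjusted p of 0.311. On the high-fat diet (HFD), BATKO mice were at 2233, 1582 and 1262, and CTRL mice at 152, 1401, 158 and 153, with a log2 fold change of 1.86 ± 0.62 and an adjusted p of 0.883. The library at 1401, labelled CTRL mouse 9 on HFD, was within the BATKO range, and whether its label is correct could not be checked. Without it the log2 fold change on HFD was 3.46 ± 0.23 and the adjusted p 8.48e-06. This library was picked out by its own Elmod2 value, so that p is no independent test of the gene. With any other mouse on HFD left out, the adjusted p of Elmod2 by edgeR was between 0.468 and 0.998.

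Tbc1d9 in those mice had positive log2 fold changes on both diets and a negative one at 4 °C, none of them past the threshold. Its log2 fold change was 1.27 ± 0.35 on chow (adjusted p = 0.311), 0.98 ± 0.30 on HFD (adjusted p = 0.883) and -0.15 ± 0.21 at 4 °C (adjusted p = 0.790). The interaction between genotype and temperature for Tbc1d9 was 1.10 ± 0.29 with an adjusted p of 0.0745. In the library labelled CTRL mouse 9 on HFD, Tbc1d9 was at 83.6 normalised counts, within the BATKO range of 69.4 to 112, whereas the other 3 CTRL mice were between 30.2 and 44.7.

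Among the other genes at 30 °C no difference passed the threshold, and the lowest adjusted p after Elmod2 was 0.299. At an unadjusted p under 0.05, 895 genes were higher and 309 lower in BATKO mice. Higher values made up 74.3% of these, and 61.1% with DESeq2's size factors in place of TMM. When mice were left out in turn, the counts were between 489 and 1294 genes higher and between 164 and 525 lower, the lowest of each without BATKO mouse 17 and the highest without BATKO mouse 13. The median standard error of a log2 fold change was 0.19 and the median half-width of its 95% confidence interval 0.41. Differences well below this size were not detectable with these mice. That interval is not adjusted for the number of genes, and larger differences also missed the threshold, such as 0.95 for Tbc1d9 and 0.94 for Timp4. Log2 fold changes lay within 0.5 of zero for 90.8% of genes, and 104 genes had an absolute log2 fold change of 1 or more.

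**Figure D3:**
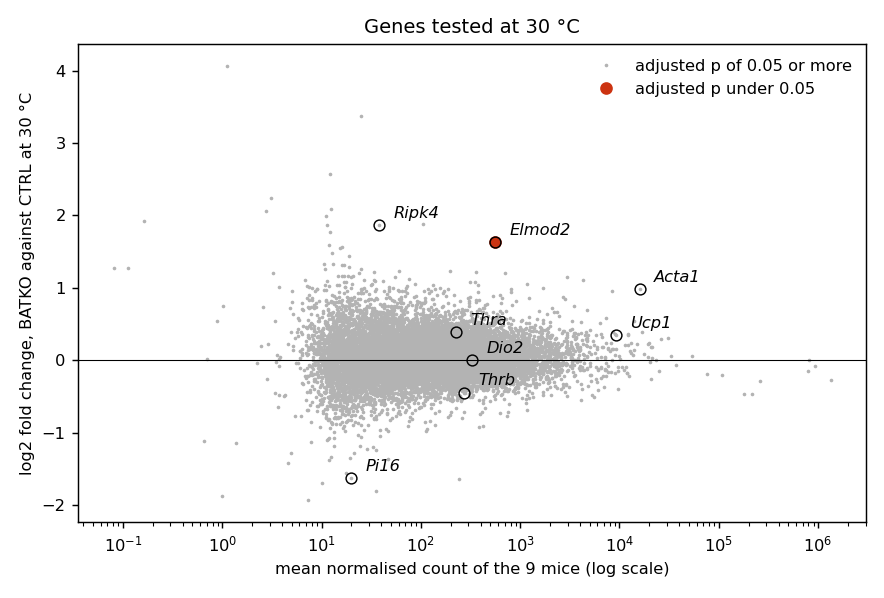
Log2 fold change between BATKO and CTRL mice at 30 °C (vertical axis) against the mean normalised count of the 9 mice (log scale) for the 13257 genes tested. Elmod2, in red, is the single gene with an adjusted p under 0.05, and circles mark other named genes.

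DESeq2 on the same counts called 8 genes (0.0604% of those it tested), and those described here were named for that reason, after their values were seen. Elmod2 came first, with an adjusted p of 7.23e-16. Other genes higher in BATKO mice were Timp4, an inhibitor of matrix metalloproteinases; Agrn, a basement membrane proteoglycan; Endog, a mitochondrial nuclease; Ripk4, a protein kinase known from skin; and Myo18a, an unconventional myosin. Fcgr2b, the inhibitory Fc receptor of macrophages and B cells, was lower. Timp4 stood at 909, 1183, 967, 880 and 1220 normalised counts in BATKO mice and at 677, 596, 383 and 495 in CTRL mice, with no overlap. By edgeR its log2 fold change was 0.94 ± 0.19 with an adjusted p of 0.299. Fcgr2b stood at 58.0, 65.5, 64.3, 55.0 and 51.5 in BATKO mice and at 122, 97.4, 89.5 and 97.2 in CTRL mice, again with no overlap, and its log2 fold change was -0.79 ± 0.15 (adjusted p by edgeR 0.299). Ripk4 ranged from 32.2 to 82.7 in BATKO and from 3.62 to 22.6 in CTRL mice, with a log2 fold change of 1.86 ± 0.41. By edgeR the log2 fold changes were 0.66 for Agrn, 0.82 for Endog and 0.66 for Myo18a.

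At 4 °C the log2 fold changes of 5 of these genes had the opposite sign. They were -0.19 ± 0.21 for Timp4, -0.40 ± 0.15 for Agrn, -0.51 ± 0.18 for Endog, -0.38 ± 0.15 for Myo18a and 0.33 ± 0.17 for Fcgr2b, whereas that of Ripk4, at 0.53 ± 0.51, kept its sign. The interaction with temperature was past the threshold for Agrn (1.06, adjusted p = 0.0226), Endog (1.32, adjusted p = 0.0226), Myo18a (1.04, adjusted p = 0.0272) and Fcgr2b (-1.11, adjusted p = 0.0316). That test passed for 149 genes in all (1.12% of those tested), and this count moved between 5 and 891 when single mice were left out. The lowest count came without CTRL mouse 1 at 4 °C and the highest without CTRL mouse 5 at 4 °C.

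Genes of brown fat thermogenesis and identity gave 0 calls of 21 tested. At an unadjusted p under 0.05, 3 were higher (14.3%) and 0 lower in BATKO mice, beside 6.75% and 2.33% of all genes tested. The median log2 fold change was 0.05 beside 0.04 over all genes tested. With correction for transcript GC content, 2 were higher (9.52%, beside 3.22%) and 0 lower. Cox8b, a subunit of cytochrome c oxidase found in brown fat and muscle, stood at 7838, 12770, 7227, 11465 and 14264 normalised counts in BATKO mice and at 2802, 5879, 5678 and 7662 in CTRL mice. Its highest CTRL value was above the lowest BATKO value, and its log2 fold change was 0.96 ± 0.29 with an adjusted p of 0.542. Prdm16, a transcription regulator of brown fat identity, was between 101 and 129 in BATKO and between 59.1 and 104 in CTRL mice (log2 fold change 0.45 ± 0.15, adjusted p = 0.542). Ppargc1a, a coactivator of mitochondrial biogenesis, was between 166 and 267 in BATKO and between 183 and 413 in CTRL mice (log2 fold change -0.27 ± 0.31, adjusted p = 0.768). Its relative Ppargc1b had a log2 fold change of 0.47 ± 0.17 (adjusted p = 0.542). Adrb3, the beta-adrenergic receptor of adipocytes, overlapped between the groups, with a log2 fold change of 0.28 ± 0.28.

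Dio2, Hr and Klf9, genes tied to T3 production or response, overlapped between the groups. Dio2 ranged from 66.5 to 865 normalised counts in BATKO mice and from 6.08 to 806 in CTRL mice. Hr, a corepressor gene that T3 induces in many tissues, was at 17.9, 42.3, 66.2, 108 and 181 in BATKO mice and at 16.5, 34.8, 69.6 and 164 in CTRL mice. The groups covered almost the same range, and the log2 fold change was 0.25 ± 0.58. Klf9, a transcription factor induced by T3, differed by 0.00 ± 0.18, with a 95% confidence interval of -0.37 to 0.37. Of the 11 genes tested in the list of known T3-responsive genes, 0 were called and 0 reached an unadjusted p under 0.05, and of 17 receptors, RXRs and coregulators 1 did, which was Thrb.

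Nuclear subunits of the respiratory complexes had medians above that of all genes, and 0 were called. Of 37 nuclear subunits of complex I tested, 6 were higher and 0 lower at an unadjusted p under 0.05, with a median log2 fold change of 0.12. These 6 are 16.2% of the list, beside 6.75% higher and 2.33% lower over all genes tested. Of 38 subunits of complexes III to V, 4 were higher (10.5%) and 0 lower, with a median of 0.10. Ndufs7 (0.41 ± 0.16) and Cyc1 (0.36 ± 0.15), subunits of complexes I and III, were among them. The 8 mitochondrially encoded messengers tested had a median of -0.21, with 0 at an unadjusted p under 0.05. With log counts corrected for transcript GC content, these 3 medians were 0.03, 0.03 and 0.06. Of 21 enzymes of mitochondrial fatty acid oxidation, 3 were higher and 1 lower, with a median of -0.07. Log2 fold changes were negative for 11 of the 21, down to -0.54. Examples on the higher side were Hadha at 0.51 ± 0.20 and Etfb at 0.67 ± 0.27. Lipolysis and lipid droplet genes gave 3 higher and 0 lower of 17, among them Plin5 at 0.45 ± 0.17, and de novo lipogenesis gave 0 higher and 1 lower of 17, which was the elongase gene Elovl6 at -0.55 ± 0.23. With that correction 3.22% of all genes tested were higher and 2.11% lower at an unadjusted p under 0.05. Those of the lists were 2 higher for complex I (5.41%), 1 higher for complexes III to V (2.63%), 1 higher and 1 lower for fatty acid oxidation, and none for lipolysis and lipid droplet, whose median went from 0.26 to 0.06, or for de novo lipogenesis. The adjusted p of each gene named so far here was 0.542 without the correction, and none was called. Ckb, the creatine kinase of the brown fat creatine cycle, was between 62.4 and 188 normalised counts in BATKO and between 34.7 and 73.9 in CTRL mice, a log2 fold change of 1.05 ± 0.30 (adjusted p = 0.542). At 4 °C it was lower in BATKO mice by a log2 fold change of -2.65 ± 0.32 (adjusted p = 0.000676), and the interaction was 3.70 ± 0.44 (adjusted p = 0.000969). Hk1, a hexokinase, had the same signs, with 0.61 ± 0.21 at 30 °C, -1.30 ± 0.23 at 4 °C and an interaction of 1.91 ± 0.31 (adjusted p = 0.0165). Both interactions reuse the values at 30 °C that were seen before Ckb and Hk1 were named.

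Genes that T3 changed in hypothyroid wild-type BAT were then followed. A list of 408 genes was higher and a list of 234 genes lower than in PTU-fed controls at 3, 6, 12 and 24 h after TH in that separate experiment (edgeR, adjusted p under 0.05 at every time). Of the 401 T3-induced genes tested at 30 °C, 0 were called. At an unadjusted p under 0.05, 75 were higher (18.7%) and 3 lower in BATKO mice, and the median log2 fold change was 0.20. Of the 227 T3-repressed genes tested, 0 were called, 5 were higher and 17 lower (7.49%), and the median was -0.06. Over all genes tested, 6.75% were higher and 2.33% lower at that unadjusted p, with a median of 0.04. Of the T3-induced genes 309 had a positive log2 fold change and of the T3-repressed genes 138 a negative one, whereas 7333 of the 13257 genes tested were positive. When mice were left out in turn, the number of higher T3-induced genes was between 47, without CTRL mouse 19, and 106, without BATKO mouse 13, and it was 48 without BATKO mouse 17. Among the T3-induced genes with the lowest adjusted p, Podxl, a sialomucin of blood vessels, was between 346 and 388 normalised counts in BATKO and between 220 and 324 in CTRL mice (log2 fold change 0.54 ± 0.13, adjusted p = 0.515). Arhgef15 was at 0.67 ± 0.17, Pmm2 at 0.59 ± 0.16 and Slc26a6 at 0.95 ± 0.27, all with an adjusted p of 0.542. Rasl10a was at 0 counts in all 4 CTRL mice and at most at 3 counts in a BATKO mouse, so that no fold is given. Among the T3-repressed genes Bhlhb9 was at -0.53 ± 0.18, while Abcc5 at 0.47 ± 0.13 and Pdgfc at 0.83 ± 0.28 were on the opposite side (adjusted p = 0.542 for each of these).

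**Figure D4:**
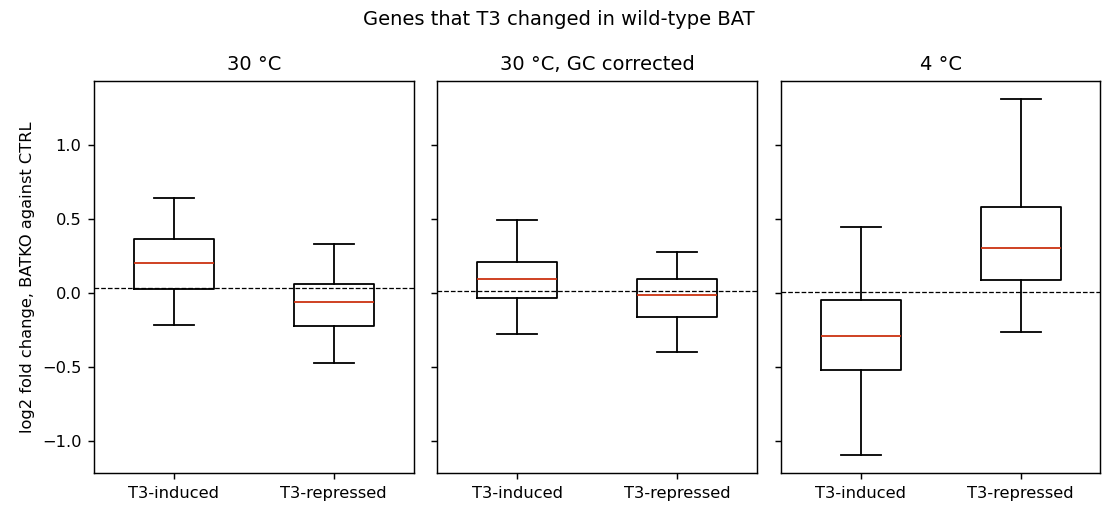
Log2 fold changes between BATKO and CTRL mice of the genes that T3 induced (401 tested) or repressed (227 tested) in wild-type BAT, at 30 °C, at 30 °C with GC correction and at 4 °C. Boxes are quartiles with the median in red, whiskers leave out the lowest and the highest 5% of genes, and the dashed line is the median of all genes tested. The T3-induced median is 0.20 at 30 °C, 0.09 with GC correction and -0.29 at 4 °C.

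The base composition of transcripts moved with this result. Genes higher at an unadjusted p under 0.05 had a median GC content of 55.4%, those lower 43.8% and all genes tested 49.5%, and T3-induced genes had 53.1%. The median log2 level of genes in the upper quartile of GC content relative to genes in the lower quartile, set against the mean of the 9 mice, was between -0.18 and 0.53 in BATKO mice and between -0.35 and -0.01 in CTRL mice (exact permutation test, two-sided, p = 0.0794). With each library corrected for GC content, 427 genes were higher (3.22%) and 280 lower (2.11%) at an unadjusted p under 0.05. The T3-induced list then held 34 higher and 3 lower genes, with a median of 0.09 beside 0.02 over all genes, and the T3-repressed list had a median of -0.01. The part of GC content in the pattern was not tested further. Endothelial markers lay on the same side, with 11 of 12 positive, a median of 0.23 and none of the 12 at 0 in all mice, and their part in the T3-induced median was not tested. Elmod2 kept a log2 fold change of 1.81 and its call after the correction.

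**Figure D5:**
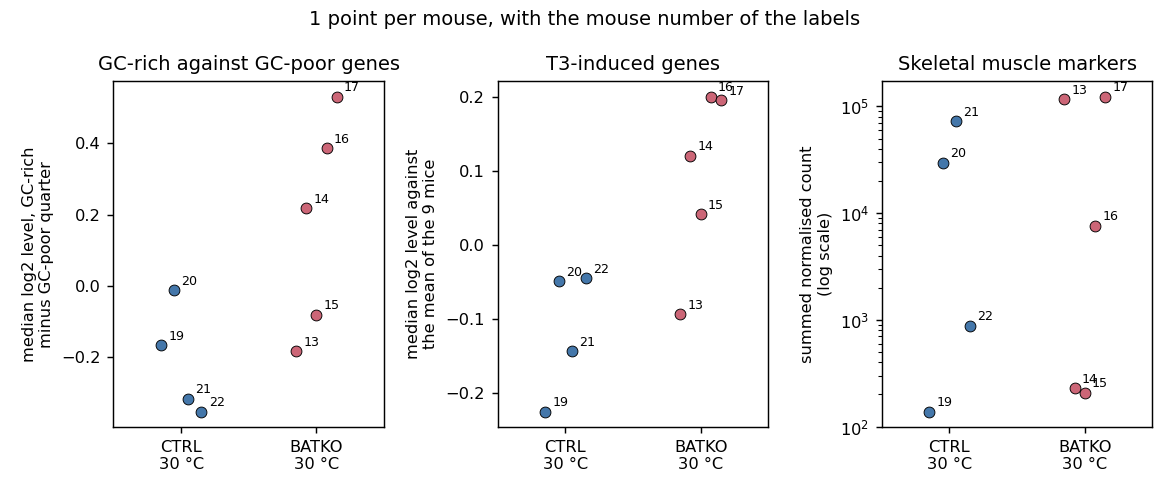
Values per mouse at 30 °C, with the mouse numbers of the labels: the median log2 level of GC-rich relative to GC-poor genes, the median log2 level of T3-induced genes relative to the mean of the 9 mice, and the summed skeletal muscle markers (log scale). BATKO mice 14, 16 and 17 have the highest values of the first measure and of the second, and muscle markers run from 138 to 123047 with both groups spread over the range.

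At 4 °C the T3 lists lay on the other side. The T3-induced median was -0.29, with 0 genes called higher and 36 called lower in BATKO mice, and the T3-repressed median was 0.30, with 22 called higher and 0 lower. Over all genes at 4 °C, 127 were called higher (0.958%) and 159 lower (1.20%), and their sum of 286 moved between 53, without CTRL mouse 2 at 4 °C, and 565, without CTRL mouse 5 at 4 °C. The interaction, which tests the difference between the temperatures, passed for 25 T3-induced genes, all with a more positive value at 30 °C, and for 9 T3-repressed genes, all with a more negative one. Over all genes tested it passed for 149 (1.12%), of which 107 had a more positive and 42 a more negative value at 30 °C, and this count is the one that moved between 5 and 891 when single mice were left out. The counts of T3 genes at 4 °C and in the interaction were not recomputed without single mice.

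Markers of macrophages and other immune cells had the lowest median of the cell type lists that held more than 1 tested gene, at -0.53. Of 13 tested, 0 were called, and 6 were lower at an unadjusted p under 0.05 (46.2%, beside 2.33% of all genes tested) and 0 higher. With GC correction 4 were lower (30.8%, beside 2.11%). Mrc1, the mannose receptor of resident macrophages, was at 157, 165, 177, 110 and 141 normalised counts in BATKO mice and at 293, 272, 220 and 226 in CTRL mice, with no overlap, a log2 fold change of -0.75 ± 0.21 and an adjusted p of 0.542. Cd163, a haemoglobin scavenger receptor, was between 19.1 and 43.4 in BATKO and between 33.8 and 105 in CTRL mice, with an overlap. Lyz2, a lysozyme, was at -0.53 ± 0.22, and at -0.30 without CTRL mouse 19. Cd74, the most abundant marker of the list, was at 0.18 ± 0.25, and the summed list ranged from 2466 to 4072 in BATKO and from 2720 to 4540 in CTRL mice, with an overlap (exact permutation test, p = 0.794). In bulk tissue, fewer cells of a type and less RNA per cell cannot be told apart.

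Stromal, vascular and muscle lists held 0 called genes. Of 11 fibroblast and precursor markers tested, 2 were lower at an unadjusted p under 0.05 (18.2%, beside 2.33% of all genes tested), among them Pi16. With GC correction 3 were lower (27.3%, beside 2.11%). Dcn, the most abundant, was at -0.26 ± 0.13. Pi16 ranged from 5.28 to 79.0 normalised counts among CTRL mice, which enclosed the BATKO range of 6.62 to 17.7. The collagen gene Col14a1 was between 5.67 and 19.9 in BATKO and between 15.8 and 60.8 in CTRL mice (log2 fold change -1.28 ± 0.40, adjusted p = 0.542), and its log2 fold change was -0.75 without CTRL mouse 19. Of 12 endothelial markers, 1 was higher (8.33%, beside 6.75% of all genes tested) and 0 were lower, 11 had positive log2 fold changes, and the median was 0.23, or 0.13 with GC correction. Their summed level ranged from 9343 to 12454 normalised counts in BATKO and from 8760 to 9965 in CTRL mice, with an overlap (exact permutation test of the log2 sums, two-sided, p = 0.0476). This was the lowest p of the 8 cell type lists whose sums were compared, and it was 0.381 adjusted over the 8 (Benjamini-Hochberg). Cdh5, the cadherin of endothelial junctions, was at 0.22 ± 0.15. All 15 skeletal muscle markers had positive log2 fold changes, with a median of 0.90, but Acta1, muscle actin, was between 6.05 and 54611 in BATKO and between 2.61 and 29153 in CTRL mice, and none of the 15 reached an unadjusted p under 0.05.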

How the data were processed

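Gene counts of BAT libraries (Trizol RNA, Lexogen total RNA SENSE kit, NextSeq 500) were used for the mice at 30 °C and 4 °C, with those of the diet experiment and of the wild-type TH time course as further mice. The authors deposited raw counts per gene, without normalization. The paper states alignment on GRCm38 (mm10) with Bowtie, removal of reads of low alignment quality and counting with htseqcount, and the submitters' processing notes name Bowtie2 2.3.2.2 and DESeq2. The annotation and the strand setting are not given in the sources used here, so that overlapping genes on opposite strands may share reads. Of 55341 listed symbols, 55327 matched GENCODE positions, and the other 14, turned into dates by a spreadsheet (0.0333% of counts), were dropped. 0 columns were left unmatched to a sample.

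Counts were analysed with R 4.3.3 and edgeR 4.0.16 (TMM, quasi-likelihood test, Benjamini-Hochberg adjustment, threshold 0.05) on genes with a mean normalised count above 10, in a single fit of the 16 mice at both temperatures with genotype contrasts at each temperature and their interaction. Alternatives were DESeq2 1.42.0, its size factors in edgeR, no filter, a mean above 50, mitochondrially encoded genes left out, a fit of the 9 mice at 30 °C, a fold threshold, T3 lists called at 3 h and each mouse left out; a muscle covariate, the GC correction and a fit without the 4 mice at 30 °C with muscle markers above 10000 normalised counts were added after seeing the data. Normalised counts are TMM-scaled counts. Standard errors were derived from the F statistic. Exact permutation tests were run with scipy 1.17.1. The GC correction fitted a lowess curve of log counts on transcript GC content per library. The test was also run on simulated data, and the outcome of that run is not reported here. Nothing in the labels states separate litters or cultures, so p-values measure the spread between these mice. Among the 16 pairs of mice of 1 group at 30 °C, chi-square over its degrees of freedom was at least 12.3, so no library repeated another of its group.

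The named genes are those past the threshold with a mean above 50 and no overlap between the groups, Thra, Thrb, Ucp1, Dio2, Hr and Elmod2, up to 3 defining members of each gene list that did not pass, the most abundant markers of each cell type list, and the 5 T3-induced and 5 T3-repressed genes with the lowest adjusted p. List members named at an unadjusted p under 0.05 and Xist and Ddx3y were chosen after their values were seen. Some genes that this rule names are not reported here. The groups, the gene lists and the named genes were chosen with earlier results of these data known.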

Additional observations from a re-analysis of the deposited data

Results flagged for a closer look

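Among the named genes, 9 of 97 groups of mice held a mouse that stood apart from the others of its group by the test of Dixon, which chance does in about 1 group in 20. The ratio of the gap to the range was 0.756 for Dio2, at 865 normalised counts in BATKO mouse 17 and 66.5 to 261 in the other BATKO mice. It was 0.901 for Ppargc1b, at 267 in BATKO mouse 16 and 394 to 408 in the others, 0.802 for Lyz2, at 177 in BATKO mouse 13 and 220 to 230 in the others, and 0.778 for Pi16, at 17.7 in BATKO mouse 17 and 6.62 to 9.07 in the others. In CTRL mice it was 0.845 for Podxl, at 324 in mouse 20 and 220 to 236 in the others, 0.979 for Pmm2, at 269 in mouse 21 and 330.5 to 332 in the others, and 0.850 for Ppargc1a, at 413 in mouse 22 and 183 to 218 in the others. For Xist it was 0.934, with BATKO mouse 13 at 86.1, and 0.903, with CTRL mouse 21 at 10.8.

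The genotype difference at 30 °C departed from that at 4 °C, by the interaction term of edgeR, for 9 of the named genes. Over all genes tested it passed for 149 (1.12%), a count between 5 and 891 when single mice were left out. Several of these 9 genes were named for their values at 30 °C, which enter the same term. The term, as the log2 difference at 30 °C minus that at 4 °C, was -2.30 for Elmod2, 1.06 for Agrn, -1.11 for Fcgr2b, 1.32 for Endog, 1.04 for Myo18a, -1.30 for Bhlhb9 (adjusted p = 0.0374), 3.70 for Ckb and 1.91 for Hk1. For Rasl10a it was 4.86 (adjusted p = 0.0297), a value that rests on at most 3 counts in a mouse at 30 °C and is no measure of a fold.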

How the results depend on the processing

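The call of Elmod2 was made in each of the alternatives run, apart from the fit without the 4 mice at 30 °C with muscle markers above 10000 normalised counts, which was chosen after seeing the data and gave 0 genes higher (adjusted p of Elmod2 0.377), and the fit without those mice also gave 4 interaction calls and 154 calls at 4 °C. With 3 against 2 mice left at 30 °C, the fit had fewer samples, and 4 mice at 4 °C that were also above 10000 stayed in it. DESeq2 called 6 genes higher and 2 lower at 30 °C, 645 for the interaction, 638 at 4 °C, 31 on chow and 9 on HFD. The main counts were 1 higher and 0 lower at 30 °C, 149 for the interaction, 286 at 4 °C, 0 on chow and 0 on HFD. Without a filter on the mean count, 290 genes were called on chow and 59 on HFD. With GC correction, also added after seeing the data, 544 genes were called at 4 °C, and the T3-repressed median relative to all genes was -0.027 in place of -0.10. The cause of these differences was not tested.

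Leaving out single mice gave 53 to 565 calls at 4 °C, 5 to 891 for the interaction and 0 to 10 on HFD. No paired analysis was possible because the BATKO and CTRL mice at 30 °C share no mouse number. Among genes that were not called, the log2 fold change of Klf9 was -0.027 with DESeq2, -0.024 with RLE size factors, -0.025 without mt- genes, -0.024 with only the 9 mice at 30 °C and -0.15 without the mice with muscle markers. When mice were left out it ranged from -0.12 to 0.087 for Klf9, from -0.79 to 0.96 for Dio2, from -0.27 to 1.03 for Hr and from -0.39 to 0.056 for Ppargc1a. GC correction gave 0.22 for Dio2, -0.20 for Hr and -0.047 for Cd74. Hr was at -0.32 without the mice with muscle markers, and Acta1 at -0.39 with muscle markers as a covariate. At 8004926 to 11876234 counts per mouse, the spread between mice, with a median standard error of 0.19 on the log2 scale, limited what could be detected.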

Other observations

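The library labelled CTRL mouse 9 on HFD, which enters no comparison at 30 °C, had 1401 normalised counts of Elmod2 and 83.6 of Tbc1d9, both inside the range of the BATKO mice on HFD.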
